A study of Mus musculus with 6 samples.

Results

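The EGR and NR4A families are transcription factors of the immediate early response, and they are described here together with serum response factor (SRF), which drives EGR transcription, and the NAB co-repressors, which bind EGR proteins. The 9 genes Egr1, Egr2, Egr3, Nr4a1, Nr4a2, Nr4a3, Srf, Nab1 and Nab2 were found by symbol among 22706 genes measured in freshly sorted muscle stem cells (MuSCs), and all 9 were among the 15915 genes that passed the filter on low values, a mean of at least 5. They were chosen by gene family and role with their values in these 6 libraries known, so their levels and fold changes are given as a description and carry no test. Other genes of the pathway were tested in a fit across all of these 15915 genes, but their lists too were put together with earlier results of these data known, so their counts are no independent evidence.

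Each group held 2 libraries. Control mice were wild type, mdx mice lacked functional dystrophin through a mutation of Dmd that models Duchenne muscular dystrophy, and Sirt6mKO/mdx mice carry the same mutation and a deletion of Sirt6 exons by the constitutive Pax7-ICN Cre, which acts in the Pax7 lineage and therefore also in muscle fibres formed from it. The labels give the strain C57BL/6 for all groups, and the study likewise states a C57BL/6 background with littermate controls, its mdx line having come on C57BL/10ScSn. The labels give neither age nor sex nor the number of mice behind a library. The study describes the libraries of a group as biological replicates. It states male mice for its in vivo work with these genotypes. The legends of its figures on the RNA of these sorted cells likewise state male mice, and the ages they give differ between legends. According to the study's methods, limb and trunk muscles were digested with dispase and collagenase, cells positive for Sca1, CD45 or CD31 were set aside, and MuSCs were sorted by flow cytometry. The sort used either antibodies to surface markers or a GFP or YFP reporter, and the methods do not say which was used for which library. The study states that the purity of sorted cells was incomplete. Values are normalized read counts, which the authors obtained by dividing the reads of a gene by the size factor of the library.

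The libraries held approximately 4397499 to 9743941 reads, and a gene with few reads is measured with a wide counting error. Of 10 MuSC markers, whose sums lay between 21482 and 29429, Pax7 held values between 2167 and 3236, while Sdc4 was called in all 3 comparisons: it was lower in mdx than in control (-2.69), higher in Sirt6mKO/mdx than in mdx (1.37) and lower there than in control (-1.31). The sums of 7 macrophage and leukocyte markers lay between 101 and 246, with Lyz2 called higher (3.22) and Cd68 lower (-1.60) in mdx against control and Lyz2 higher (3.75) in Sirt6mKO/mdx against control. The sums of 8 Schwann cell markers lay between 58 and 111. Control libraries had Sirt6 values of 41 and 32, mdx libraries of 33 and 40 and Sirt6mKO/mdx libraries of 37 and 30, so the deletion was not visible in the value of the whole gene. By genotyping PCR the study reports an efficient deletion in MuSCs of Sirt6mKO mice. It also measured Sirt6 by RT-qPCR in MuSCs of control, mdx and Sirt6mKO/mdx mice. Xist, the RNA of the inactive X chromosome, was at 16772 and 12950 in control and between 7 and 34 in the other 4 libraries, while the Y-linked gene Ddx3y was at 3 and 8 in control and at 1024 or more elsewhere. The control libraries thus had the X- and Y-linked RNA of female cells, although the study's legends state male mice. The other 4 libraries had that of male cells. In every comparison with control this difference in sex-linked RNA cannot be told apart from genotype. In bulk RNA, fewer cells of a type and less RNA per cell also cannot be told apart.

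Immediate early genes are transcribed within minutes of a stimulus such as a growth factor, calcium or stress, without the synthesis of new protein. The Egr genes are switched on when MAP kinases phosphorylate ternary complex factors (ELK1, ELK3, ELK4) that sit with SRF on CArG boxes, and the Nr4a genes are switched on mainly through cAMP response elements by the CREB and CRTC proteins. NR4A proteins are orphan nuclear receptors whose activity is set largely by their amount. In muscle these genes are known to respond to contraction, injury and the enzymatic isolation of cells, and SRF also maintains the actin cytoskeleton.

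SRF is the factor upstream of the EGR genes, and it was moderately lower in mdx. Srf (ENSMUSG00000015605; GRCm38 chromosome 17, 46546839 to 46556162, minus strand) was at 382 and 411 (control), 200 and 219 (mdx) and 401 and 326 (Sirt6mKO/mdx). Both mdx libraries lay below the other 4, and control and Sirt6mKO/mdx overlapped. The mean in mdx was 52.8% of that in control, which gave a log2 fold change of -0.92 (SE 0.25, 95% interval -1.46 to -0.38), and Sirt6mKO/mdx exceeded mdx by 0.79 (SE 0.25, interval 0.25 to 1.32), or by 0.16 (SE 0.31) when libraries were scaled to equal totals. Fold changes of all genes are on the log2(value + 1) scale.

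The promoter of Srf is shown because SRF is known to act on its own gene through CArG boxes, which have an A and T core between CC and GG. The 250 bases before its annotated start (GRCm38.p6, RefSeq, chr17:46556163-46556412, minus strand) are printed on the strand of the gene, 5′ to 3′, with CArG boxes in capitals.
Srf: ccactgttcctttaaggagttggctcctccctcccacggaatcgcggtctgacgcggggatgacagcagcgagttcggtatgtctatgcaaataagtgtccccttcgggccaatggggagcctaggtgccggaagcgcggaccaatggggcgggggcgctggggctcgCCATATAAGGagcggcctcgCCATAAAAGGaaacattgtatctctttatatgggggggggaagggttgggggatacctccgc
This window held 2 CArG boxes, which start 82 and 62 bases before the start site. Over all 32851 promoter windows of the RefSeq table, which reach from 250 bases before to 50 bases after a start, 1.63% held a CArG box and 0.0183% held 2 or more. A match of letters is a description of the sequence and not a measured binding site.

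Egr1, the most abundant of the EGR genes, was lower in mdx and near the control level in the libraries labelled Sirt6mKO/mdx. Egr1 (ENSMUSG00000038418), whose zinc finger protein binds GC-rich sites, was at 12387 and 16203 in the control, 2544 and 3725 in the mdx and 15723 and 14748 in the Sirt6mKO/mdx libraries. Both mdx libraries lay apart from the other 4, whose ranges overlapped. Against control, mdx stood at a log2 fold change of -2.20 (SE 0.40, interval -3.05 to -1.36), and Sirt6mKO/mdx against mdx at 2.31 (SE 0.40, interval 1.46 to 3.15).

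Egr2 was also lowest in mdx, with both other groups overlapping. Egr2 (ENSMUSG00000037868; chromosome 10, 67535475 to 67542188, plus strand), known for its role in Schwann cell myelination and in T cells, was at 844 and 1008 (control), 104 and 91 (mdx) and 692 and 918 (Sirt6mKO/mdx). The mdx mean was 10.5% of the control mean and the Sirt6mKO/mdx mean 86.9%. This gave a log2 fold change of -3.23 (SE 0.25, interval -3.77 to -2.69) for mdx against control and 3.02 (SE 0.25, interval 2.48 to 3.56) for Sirt6mKO/mdx against mdx. Markers of Schwann cells, which use Egr2, summed to 93 and 79 in the control, 111 and 79 in the mdx and 76 and 58 in the Sirt6mKO/mdx libraries. Only 4 of these 8 markers passed the filter on low values, and their part in the values of Egr2 was not tested.

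Egr3 had few reads and the widest interval of the family. Egr3 (ENSMUSG00000033730; chromosome 14, 70077445 to 70080157, plus strand), a factor of muscle spindle development, was at 60 and 105 (control), 18 and 9 (mdx) and 62 and 39 (Sirt6mKO/mdx). Its mdx values rested on approximately 27 and 12 reads, and no mdx library reached the lowest value of the other groups. The log2 fold change was -2.54 (SE 0.55, interval -3.71 to -1.38) for mdx against control and 1.86 (SE 0.55, interval 0.70 to 3.03) for Sirt6mKO/mdx against mdx. Egr4, the remaining EGR gene and no member here, was at 5 and 8, 2 and 3, and 3 and 0 in the 3 groups, below the filter on low values.

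Of the EGR genes only Egr2 was matched in the promoter table, with 5 annotated starts, and it is shown at the third start because a CArG box lay there beside cAMP response half-sites. A CArG box was found before 4 of the 5 starts of Egr2, at 72 bases before the third. The windows of starts 3, 4 and 5 overlap and hold the same box, at 72, 73 and 133 bases before these starts. Start 2 has a different box. The stretch is chr10:67537619-67537868 (GRCm38.p6, RefSeq, plus strand), again 250 bases with the CArG box in capitals.
Egr2: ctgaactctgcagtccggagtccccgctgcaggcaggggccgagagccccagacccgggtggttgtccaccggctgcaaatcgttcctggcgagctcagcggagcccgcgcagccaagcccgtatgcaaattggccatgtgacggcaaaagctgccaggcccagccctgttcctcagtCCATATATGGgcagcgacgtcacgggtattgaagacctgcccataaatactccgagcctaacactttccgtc
The half-site of the cAMP response element, TGACG on either strand, occurred at 111 and 55 bases before this start, and 20.8% of all windows held at least 1 such half-site. Egr1 and Egr3 had no entry in the table.

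The NAB co-repressors, which EGR proteins induce and which in turn hold EGR activity down, differed little between groups beside the EGR genes. Nab1 (ENSMUSG00000002881; chromosome 1, 52457294 to 52500679, minus strand) was at 346 and 295 in the control, 271 and 251 in the mdx and 446 and 376 in the Sirt6mKO/mdx libraries. Its groups did not overlap, but the log2 fold changes were small: -0.29 (SE 0.25) for mdx against control, 0.65 (SE 0.25, interval 0.11 to 1.18) for Sirt6mKO/mdx against mdx, and 0.02 for the latter when libraries were scaled to equal totals.

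Nab2 was the one gene of the 9 whose mean was higher in mdx than in control. Nab2 (ENSMUSG00000025402; chromosome 10, 127660918 to 127668568, minus strand) was at 106 and 110 (control), 147 and 141 (mdx) and 132 and 158 (Sirt6mKO/mdx). The control libraries lay lowest, and mdx and Sirt6mKO/mdx overlapped. Its log2 fold change of mdx against control was 0.41 (SE 0.30, interval -0.23 to 1.06), and between 0.38 and 0.44 under all 16 alternatives. The annotated antisense gene Gm16229, with a mean of 1.5, covers 35.7% of the exonic bases of Nab2, and reads on more than 1 gene were left out of counting according to the methods. Whether counting used strand is not given in the sources used here, so it is not known whether reads of Nab2 in that stretch were left out.

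The promoter of Nab1 is shown because it held several matches to the EGR site (GCGTGGGCG or GCGGGGGCG, both strands). The stretch is chr1:52500449-52500698 (GRCm38.p6, RefSeq, minus strand), with EGR sites in capitals.
Nab1: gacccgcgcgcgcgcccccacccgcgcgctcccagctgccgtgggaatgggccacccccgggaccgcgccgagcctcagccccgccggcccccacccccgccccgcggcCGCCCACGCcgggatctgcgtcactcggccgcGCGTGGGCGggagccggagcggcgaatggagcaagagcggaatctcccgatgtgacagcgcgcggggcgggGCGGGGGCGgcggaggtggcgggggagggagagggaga
The 3 matches start 141, 109 and 38 bases before the start site. At least 1 match was found in 3.47% of all windows and 3 or more in 0.0365%, that is in 12 of 32851 windows. The windows of Srf and Nr4a1 held 1 EGR site each, at 101 and 60 bases before the start. The window of Nab2 held none of the motifs searched.

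The NR4A genes had the lowest log2 fold changes of the 9 genes in mdx against control. Nr4a1 (ENSMUSG00000023034; chromosome 15, 101266846 to 101274792, plus strand), also called Nur77, was at 5322 and 6521 in the control, 163 and 219 in the mdx and 3436 and 3416 in the Sirt6mKO/mdx libraries. All 3 groups lay apart: mdx was lowest at 3.23% of the control mean, and Sirt6mKO/mdx stood at 57.9%. The log2 fold change was -4.96 (SE 0.26, interval -5.51 to -4.40) for mdx against control and 4.17 (SE 0.26, interval 3.62 to 4.73) for Sirt6mKO/mdx against mdx.

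Nr4a2 had the largest standard error of the 9 genes. Nr4a2 (ENSMUSG00000026826; chromosome 2, 57106830 to 57124003, minus strand), known as Nurr1 and needed for dopamine neurons, was at 245 and 347 (control), 30 and 5 (mdx) and 370 and 160 (Sirt6mKO/mdx). The mdx values stood for approximately 46 and 6 reads, yet both lay below every other library, while control and Sirt6mKO/mdx overlapped. The log2 fold change of mdx against control was -4.42 (SE 0.59, interval -5.69 to -3.16), or -5.61 without mdx replicate 1 and -3.24 without mdx replicate 2. Against mdx, Sirt6mKO/mdx was higher by 4.16 (SE 0.59, interval 2.90 to 5.43), a value that ranged from 2.98 without mdx replicate 2 to 5.35 without mdx replicate 1 and was 3.56 and 4.77 without Sirt6mKO/mdx replicates 1 and 2.

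Nr4a3 had close replicates in control. Nr4a3 (ENSMUSG00000028341; chromosome 4, 48045153 to 48086447, plus strand), also called Nor1, was at 1042 and 1054 in the control, 44 and 77 in the mdx and 628 and 423 in the Sirt6mKO/mdx libraries. As for Nr4a1, the 3 groups did not overlap and Sirt6mKO/mdx lay between mdx and control, at 50.1% of the control mean. The log2 fold change was -4.15 (SE 0.30, interval -4.79 to -3.50) for mdx against control and 3.12 (SE 0.30, interval 2.48 to 3.77) for Sirt6mKO/mdx against mdx.

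The promoters of the 3 NR4A genes are shown together because each held 4 cAMP response half-sites, TGACG on either strand, which is the core of the element bound by CREB. They are chr15:101266596-101266845 (Nr4a1, plus strand), chr2:57124004-57124253 (Nr4a2, minus strand) and chr4:48045055-48045304 (Nr4a3, plus strand), all from RefSeq on GRCm38.p6, with half-sites in capitals as TGACG or, where the half-site lies on the other strand, CGTCA.
Nr4a1: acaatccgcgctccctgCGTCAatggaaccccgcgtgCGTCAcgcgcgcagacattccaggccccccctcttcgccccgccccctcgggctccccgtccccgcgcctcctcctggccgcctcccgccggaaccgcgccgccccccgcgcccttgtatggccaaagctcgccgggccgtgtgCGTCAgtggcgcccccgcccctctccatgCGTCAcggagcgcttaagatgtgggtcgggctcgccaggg
Nr4a2: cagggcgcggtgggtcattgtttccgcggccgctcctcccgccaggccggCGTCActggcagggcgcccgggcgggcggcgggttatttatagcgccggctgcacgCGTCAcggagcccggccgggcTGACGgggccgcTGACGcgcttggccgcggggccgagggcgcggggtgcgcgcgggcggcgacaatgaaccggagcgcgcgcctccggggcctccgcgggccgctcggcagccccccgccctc
Nr4a3: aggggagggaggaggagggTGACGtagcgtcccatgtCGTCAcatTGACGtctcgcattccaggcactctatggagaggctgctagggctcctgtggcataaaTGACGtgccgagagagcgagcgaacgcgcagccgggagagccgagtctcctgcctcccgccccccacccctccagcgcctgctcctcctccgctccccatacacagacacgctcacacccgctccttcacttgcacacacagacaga
Of all 32851 windows, 0.231% held 4 or more half-sites and 1.03% held 3 or more. In Nr4a1 they start 233, 213, 69 and 40 bases before the start site, in Nr4a2 200, 144, 123 and 111 bases, and in Nr4a3 231, 213, 205 and 147 bases. None formed the full palindrome TGACGTCA, which 1.79% of windows held. The NBRE, the monomer site of NR4A proteins (AAAGGTCA), was found in 1.51% of all windows and in none of the member windows.

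**Figure D1:**
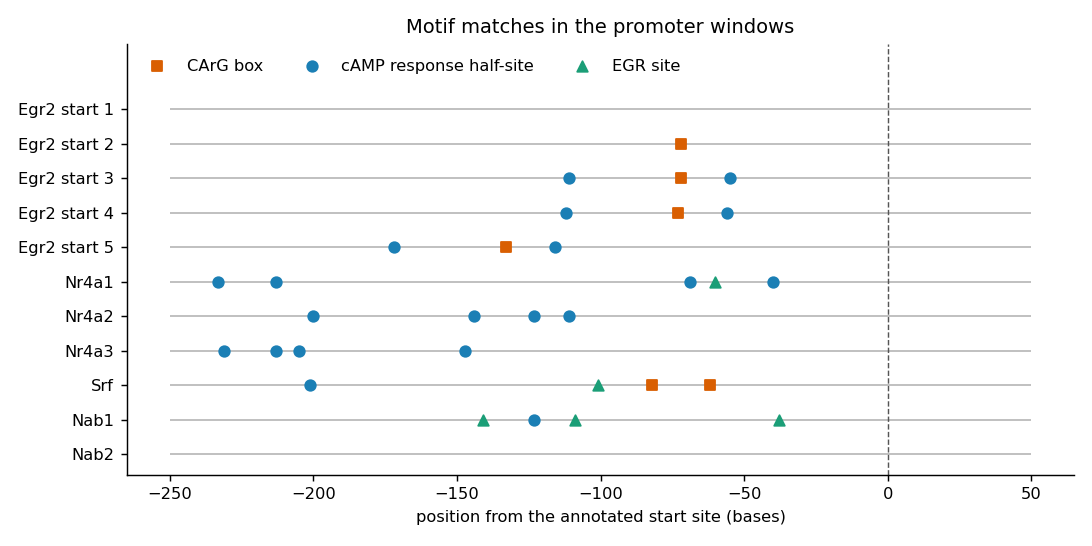
Positions of motif matches from 250 bases before to 50 bases after each annotated start of the 7 genes in the promoter table; the x axis is the distance of the first base of a match from the start in bases, each line is a window, and symbols mark CArG boxes, cAMP response half-sites and EGR sites. The 3 NR4A windows hold 4 half-sites each, CArG boxes lie in the windows of Srf and Egr2, and the Nab1 window holds 3 EGR sites.

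**Figure D2:**
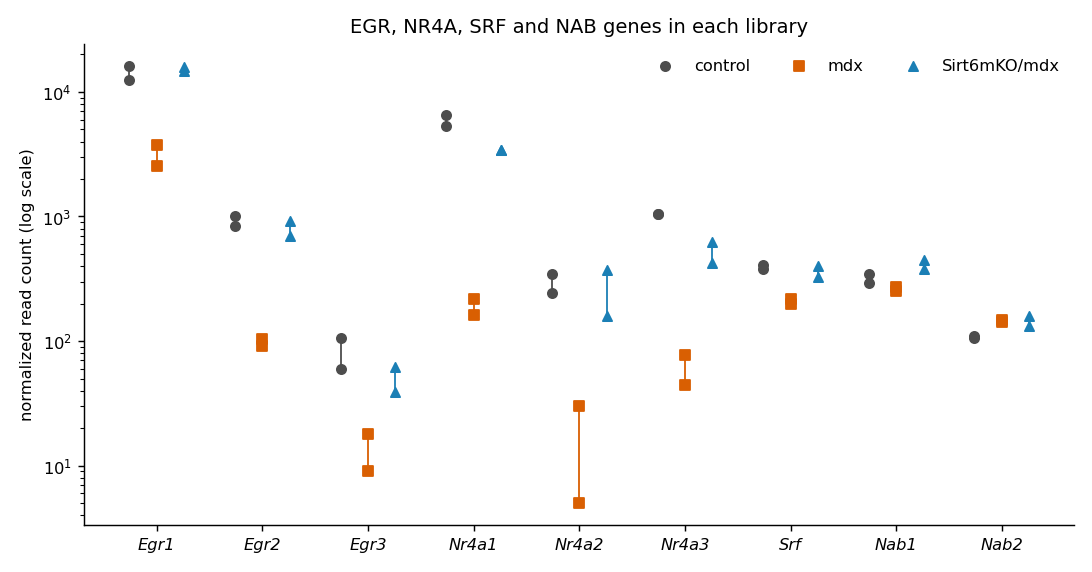
Normalized read count of each gene (log axis) in each of the 6 libraries; symbols mark the group and a line joins the 2 libraries of a group. In the 3 EGR genes, the 3 NR4A genes, Srf and Nab1 both mdx libraries lie below the other 4. This order is a description, and its share over all tested genes was not computed.

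The libraries labelled Sirt6mKO/mdx were also set against control alone. The log2 fold change against control was 0.10 (SE 0.40, interval -0.74 to 0.95) for Egr1, -0.21 (SE 0.25, interval -0.75 to 0.33) for Egr2 and -0.68 (SE 0.55, interval -1.84 to 0.48) for Egr3. It was -0.78 (SE 0.26, interval -1.34 to -0.22) for Nr4a1, -0.26 (SE 0.59, interval -1.52 to 1.0) for Nr4a2 and -1.02 (SE 0.30, interval -1.67 to -0.38) for Nr4a3. Under the 16 alternatives the value of Nr4a2 ranged from -0.86 to 0.34, so its sign was not stable. Nr4a1 and Nr4a3 were lower than in either control library, whereas the other 4 overlapped control. Srf stood at -0.13 (SE 0.25), Nab1 at 0.36 (SE 0.25) and Nab2 at 0.42 (SE 0.30). Scaling to equal totals, which moved the median of all tested genes to -0.58 in both comparisons of Sirt6mKO/mdx, turned the sign of Egr1 (-0.50), Nab1 (-0.25) and Nab2 (-0.18) in this comparison. The summed values were 9626453 and 8883310 in the Sirt6mKO/mdx libraries and between 5564142 and 6642949 in the other 4, and the 10 highest genes held more of them in both Sirt6mKO/mdx libraries (32.6% in replicate 1) than in the other 4 (11.7% to 22.9%). The part of this difference in the results was not tested.

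A gene was called when its adjusted p (limma, Benjamini-Hochberg over all tested genes) was at most 0.05 and its change at least 2-fold. For the 9 genes, chosen with these contrasts known, such a call is a description of size and spread and no evidence. In mdx against control 6 of the 9 genes were called, namely the 3 EGR and the 3 NR4A genes, all lower. Over all tested genes 14.2% were called, 6.89% higher and 7.34% lower. In Sirt6mKO/mdx against mdx the same 6 genes were called, all higher, beside 8.17% of all tested genes (5.62% higher and 2.54% lower), or 895 higher and 405 lower, which became 479 and 2932 when libraries were scaled to equal totals. In Sirt6mKO/mdx against control only Nr4a3 was called, lower, beside 7.87% (5.19% higher and 2.68% lower), or 826 higher and 427 lower, and 455 and 2692 with equal totals. Nothing is read from the counts. The mdx libraries enter both of the first comparisons, which therefore share them. The calls depend on how limma sets the spread of a gene: with 1 prior variance for all genes in place of one that follows the mean, 4 of the 9 genes (Egr1, Egr2, Nr4a1 and Nr4a3) were called in mdx against control, and 0 of the 9 and 0 of all 15915 genes in Sirt6mKO/mdx against mdx.

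The median log2 fold change of the 9 genes was -2.54 in mdx against control, 2.31 in Sirt6mKO/mdx against mdx and -0.21 in Sirt6mKO/mdx against control, beside 0.00, 0.02 and 0.01 over all tested genes. The median of the 3 NR4A genes was -4.42 in mdx against control and that of the 3 EGR genes -2.54. The intervals of Egr2 and Egr3 overlapped with those of Nr4a2 and Nr4a3, and the difference between families was not tested. Without Sirt6mKO/mdx replicate 1 the calls in Sirt6mKO/mdx against mdx fell to 3 of 9, namely Egr2, Nr4a1 and Nr4a3, and without replicate 2 to 4, with Egr1 and Egr3 lost. Egr3 also lost this call without control replicate 2, without either mdx replicate, with a pseudocount of 0.1, without a filter, with equal totals and by limma voom, and Nr4a2 without a filter and with a robust prior variance. Against control, mdx lost the call of Egr3 without control replicate 2, without mdx replicate 2 and without a filter. The call of Nr4a3 against control was lost without either control replicate, without either Sirt6mKO/mdx replicate and without mdx replicate 2, each of which left 0 of 9 called.

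**Figure D3:**
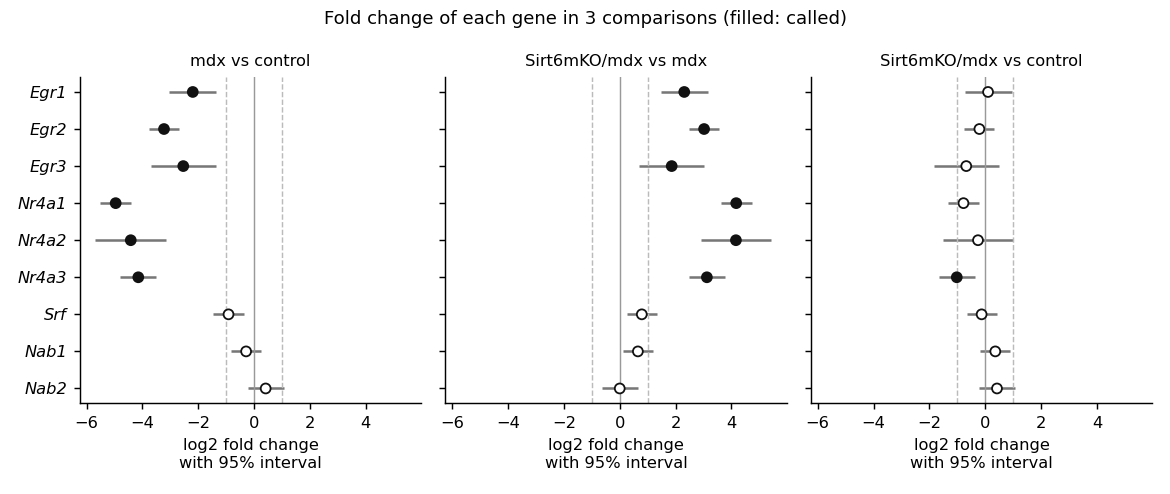
Log2 fold change of each gene (point) with its 95% interval (line) in the 3 comparisons; filled points were called and dashed lines mark a 2-fold change. The EGR and NR4A genes lie left of the lower line in mdx against control and right of the upper line in Sirt6mKO/mdx against mdx, while Srf, Nab1 and Nab2 lie within 2-fold in all 3.

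Levels of different genes were compared per kilobase of exon. Egr1 had the highest level of the 9 genes in every group, at 3190 ± 602 normalized reads per kb (SD, n = 2) in control, 699 ± 186 in mdx and 3400 ± 154 in Sirt6mKO/mdx. In control Nr4a1 followed at 1690 ± 242, then Egr2 at 273 ± 34.1, Nr4a3 at 175 ± 1.42 and Srf at 137 ± 7.09. Nab1 (78.2 ± 8.80) and Nr4a2 (72.9 ± 17.8) overlapped, and Nab2 (36.7 ± 0.962) and Egr3 (18.7 ± 7.22) closed the order. Apart from Nab1 and Nr4a2, neighbours in this order did not overlap between libraries.

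In mdx the order below Egr1 was another. Srf came second at 72.4 ± 4.64 per kb, before Nab1 at 63.7 ± 3.45, Nr4a1 at 54.4 ± 11.3 and Nab2 at 49.0 ± 1.44. Nr4a1 overlapped with both Nab1 and Nab2. Egr2 followed at 28.7 ± 2.71, and Nr4a3 (10.1 ± 3.90), Nr4a2 (4.31 ± 4.36) and Egr3 (3.06 ± 1.44) lay lowest, each overlapping with the next.

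In the libraries labelled Sirt6mKO/mdx the first 3 places were those of control. Egr1 was followed by Nr4a1 at 976 ± 4.03 per kb and Egr2 at 237 ± 47.0. Srf stood at 126 ± 18.3, Nab1 at 100 ± 12.1, Nr4a3 at 87.8 ± 24.2, Nr4a2 at 65.3 ± 36.6, Nab2 at 49.3 ± 6.25 and Egr3 at 11.5 ± 3.69. The neighbours from Nab1 to Nab2 overlapped. Among 15750 tested genes with an exon length, Nr4a1 stood at percentile 98.4 of levels per kb in control, 74.1 in mdx and 97.6 in Sirt6mKO/mdx, whereas Egr1 stayed between percentiles 97.6 and 98.8.

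Within each family 1 gene made up most of the level. Egr1 took between 91.3% and 96.6% of the summed EGR level per kb in the 6 libraries. Nr4a1 took between 75.9% and 89.8% of the summed NR4A level, with the 2 lowest shares in mdx. The summed NR4A level was 1751 and 2120 per kb (control), 61.2 and 76.5 (mdx) and 1175 and 1084 (Sirt6mKO/mdx).

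The ratio of EGR factors to their NAB co-repressors differed between groups. The summed EGR level was 25.1 and 36.0 times the summed NAB level in the control libraries, 5.19 and 7.87 times in mdx and 24.2 and 24.5 times in Sirt6mKO/mdx. The NAB sum lay between 109.2 and 153.7 per kb in all 6 libraries, so the ratio followed the EGR sum, which ran from 602 to 3934.

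**Figure D4:**
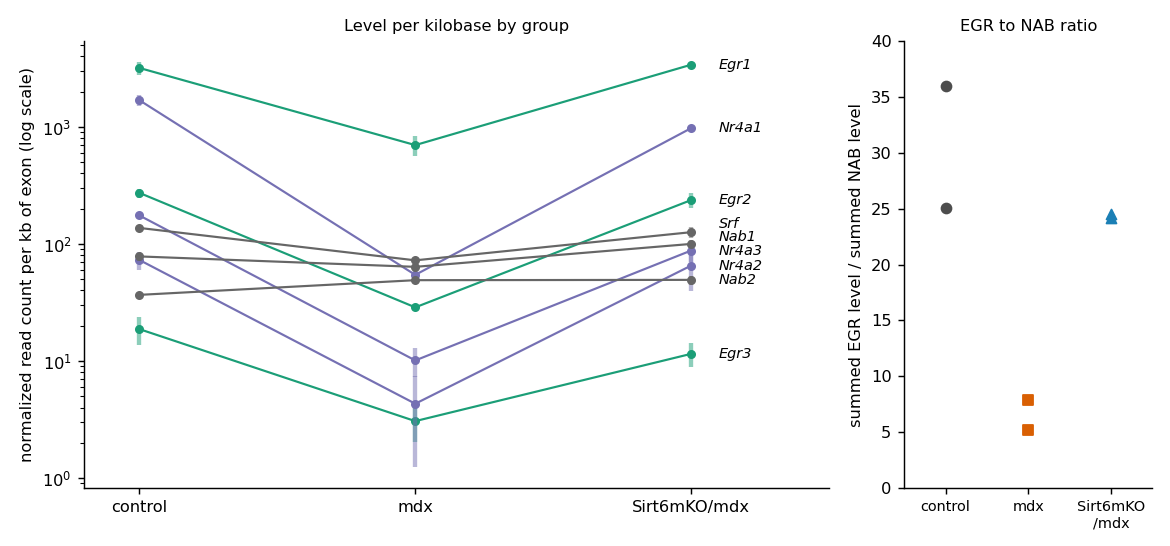
Left, mean normalized read count per kb of exon (log axis) of each gene by group, where vertical bars span the 2 libraries and lines join the group means of EGR (green), NR4A (purple) and SRF and NAB genes (grey); right, summed EGR level divided by summed NAB level in each library. Nr4a1 is second in control and overlaps with Nab1 and Nab2 in mdx, and the mdx ratios are 5.19 and 7.87 while the lowest of the other 4 is 24.2.

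Upstream of these genes, RNA of the ternary complex factors and of Creb1 did not pass the test between mdx and control, while 2 of the 3 CRTC coactivator genes of CREB did. In a list of 25 kinases, SRF partners and CREB and MEF2 factors, 24 genes were tested, and 5 fell in mdx against control beside 7.34% of all tested genes. Elk1 was at 137 and 136 (control), 79 and 93 (mdx) and 98 and 136 (Sirt6mKO/mdx), with -0.67 for mdx against control (adjusted p = 0.186). Elk4 was at 592 and 706, 438 and 481, and 506 and 432 (-0.49, adjusted p = 0.181). Neither passed the test, although for both genes the mdx libraries lay below control.

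Elk3, a ternary complex factor that can repress, was at 168 and 325 in the control, 143 and 162 in the mdx and 80 and 114 in the Sirt6mKO/mdx libraries. It fell in Sirt6mKO/mdx against control (-1.28, SE 0.35, adjusted p = 0.0326), the single called gene of 24 in that comparison beside 2.68% of all tested genes, and lost the call without control replicate 2, either mdx replicate or either Sirt6mKO/mdx replicate, without a filter and with 1 prior variance. With equal totals 10 genes of the list were called there, all lower. The SRF coactivators Mkl1 (137 and 78, 49 and 85, 79 and 67) and Mkl2 (208 and 292, 204 and 253, 245 and 190) overlapped between the 3 groups and were not called.

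Genes of the CREB branch were called in part. Creb1 was at 684 and 732 (control), 880 and 828 (mdx) and 551 and 572 (Sirt6mKO/mdx), without a call. Crem, whose transcripts encode both activators and the repressor ICER, was at 817 and 521 in the control, 100 and 80 in the mdx and 528 and 372 in the Sirt6mKO/mdx libraries. It fell in mdx against control (-2.85, SE 0.29, adjusted p = 1.34e-05) and rose in Sirt6mKO/mdx against mdx (2.30, SE 0.29, adjusted p = 0.000201).

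Crtc2, a coactivator of CREB, was at 464 and 381 (control), 124 and 126 (mdx) and 450 and 542 (Sirt6mKO/mdx). It fell by 1.74 on the log2 scale in mdx (adjusted p = 0.000331) and rose by 1.97 in Sirt6mKO/mdx against mdx (adjusted p = 0.000232). Crtc3 (772 and 805, 321 and 364, 549 and 341) fell in mdx against control (-1.20, SE 0.27, adjusted p = 0.00675), a call that was lost without mdx replicate 1, without a filter on low values and with 1 prior variance for all genes. Crtc1 (338 and 245, 140 and 212, 210 and 216) did not pass the test (-0.74, adjusted p = 0.102). The other called genes of this comparison were Mef2d and the kinase gene Rps6ka5 (MSK1), both also lost with 1 prior variance, which like the further genes of short counts below were named after their values were seen. The median of the list was -0.51 in mdx against control and 0.03 in Sirt6mKO/mdx against mdx, where Crem and Crtc2 were the 2 called genes of 24, a share near the 8.17% of all tested genes. With equal totals that comparison had 6 calls, 2 higher and 4 lower. With 1 prior variance for all genes, limma called none of the genes of this or of the further lists in Sirt6mKO/mdx against mdx.

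Cytoskeletal targets of SRF changed in both directions. Of 24 tested, 3 rose and 6 fell in mdx against control, and 5 rose and 4 fell in Sirt6mKO/mdx against mdx, with medians of -0.24 and -0.10, beside 6.89% higher and 7.34% lower and then 5.62% higher and 2.54% lower of all tested genes. With libraries scaled to equal totals the second comparison had 12 calls, 3 higher and 9 lower. The 3 that rose in mdx were Acta2, Cnn2 and Tpm4, and in Sirt6mKO/mdx against mdx Acta1, Tpm3, Pdlim7, Cyr61 and Ctgf rose and Tagln, Cnn2, Tpm4 and Cfl1 fell. Ctgf (548 and 482, 56 and 65, 241 and 264), which encodes a matricellular protein, fell in mdx (-3.07, SE 0.27, adjusted p = 2.81e-06). Cyr61, its relative, was at 5915 and 8535 in the control, 811 and 1434 in the mdx and 5836 and 5246 in the Sirt6mKO/mdx libraries, and rose in Sirt6mKO/mdx against mdx (2.36, SE 0.34, adjusted p = 0.000531).

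The actin-binding gene Cnn2 moved the other way, at 63 and 51 (control), 291 and 259 (mdx) and 80 and 87 (Sirt6mKO/mdx). It rose in mdx (2.26, SE 0.32, adjusted p = 0.000266) and fell in Sirt6mKO/mdx against mdx (-1.71, SE 0.32, adjusted p = 0.00463). In Sirt6mKO/mdx against control Actg1, Tagln, Flna, Tln1 and Ctgf fell, 5 of the 24, beside 2.68% of all tested genes, and with equal totals 9 were called, all lower. Among the 5, Tagln (532 and 838, 534 and 1081, 201 and 328) had the lowest value (-1.38, SE 0.35, adjusted p = 0.0226) and Ctgf the highest (-1.02). The 9 calls of Sirt6mKO/mdx against mdx became 5 without mdx replicate 1, 3 without mdx replicate 2, 2 without Sirt6mKO/mdx replicate 1 and 3 without its replicate 2. The 5 calls against control became 1 without either control replicate and 0 without either Sirt6mKO/mdx replicate.

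Known EGR targets and partners included calls in both directions. Of 16 tested, 2 rose and 2 fell in mdx against control, beside 6.89% and 7.34% of all tested genes, and 3 rose and 1 fell in Sirt6mKO/mdx against mdx, beside 5.62% and 2.54%, with medians of 0.09 and 0.35. Nothing particular to EGR targets is read from counts this small. Pdgfa, Vegfa and Icam1 were called in both comparisons, and Arc was called in the second. Icam1, an adhesion molecule, was at 134 and 59 in the control, 5 and 2 in the mdx and 87 and 34 in the Sirt6mKO/mdx libraries, which gave -4.41 (SE 0.66, adjusted p = 0.000399) and 3.71 (SE 0.66, adjusted p = 0.00319). The growth factor gene Pdgfa was at 56 and 82, 265 and 317, and 142 and 108, and so rose in mdx (2.08, SE 0.32, adjusted p = 0.000515) and fell in Sirt6mKO/mdx against mdx (-1.22, SE 0.32, adjusted p = 0.0303).

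In Sirt6mKO/mdx against control limma called 0 of these 16 genes, although 6 passed an unadjusted p of 0.05, and limma voom on approximate reads also called 0, but with libraries scaled to equal totals 5 were called, all lower. The 4 calls of Sirt6mKO/mdx against mdx became 2 without either mdx replicate, 1 without Sirt6mKO/mdx replicate 1 and 2 without its replicate 2. Vegfa (873 and 975, 169 and 225, 599 and 635) was called in all 4 of these fits.

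Among partners and muscle targets of NR4A proteins, the partner receptors Rxra (293 and 294, 249 and 240, 237 and 255) and Rxrb (295 and 204, 216 and 184, 207 and 313) were not called. Of 13 genes tested, 1 fell in mdx against control, a share near the 7.34% of all tested genes, and 3 rose in Sirt6mKO/mdx against mdx, beside 5.62%, with medians of -0.37 and 0.67. The 3 were Slc2a4, Pygm and Cd36. Pygm, the muscle glycogen phosphorylase, was at 757 and 817 (control), 428 and 225 (mdx) and 836 and 555 (Sirt6mKO/mdx), and passed the test in both (-1.34, adjusted p = 0.00816, and 1.13, adjusted p = 0.0332).

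Cd36, a fatty acid transporter, was at 24 and 82, 29 and 9, and 118 and 108, and rose in Sirt6mKO/mdx against mdx (2.72, SE 0.62, adjusted p = 0.0143). The 3 calls of this comparison became 1 with equal totals (Cd36) and 0 without a filter, without mdx replicate 2 or either Sirt6mKO/mdx replicate, and the call of Pygm in mdx against control was lost without mdx replicate 2, while Pfkm was called beside it without control replicate 1 and Eno3 without mdx replicate 1, which made 2 calls each. In Sirt6mKO/mdx against control limma called 0 of 13 and limma voom 0, with 1 at an unadjusted p under 0.05, and Prkag3 alone was called without control replicate 1. Pygm is a gene of muscle fibres, and the sum of 8 myofibre markers was 6471 and 6929 in the control, 5031 and 1441 in the mdx and 10416 and 4254 in the Sirt6mKO/mdx libraries. Of these markers 3 fell in mdx against control (Ckm, Acta1 and Myh1) and 3 rose in Sirt6mKO/mdx against mdx (Acta1, Myh1 and Tnnc2). Acta1 also stands in the list of SRF targets, and the part of these markers in the result was not tested.

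Other genes of the immediate early response and heat shock genes moved with the EGR and NR4A genes. Both lists were chosen with this pattern in view, and their counts are a description. Of 17 other immediate early genes, all but Npas4 and Klf2 (15) fell in mdx against control and rose in Sirt6mKO/mdx against mdx, and their summed value was 64984 and 66211 (control), 8824 and 9334 (mdx) and 54012 and 58914 (Sirt6mKO/mdx). Of 12 heat shock genes, 12 fell and all but Hspa8 (11) rose in the same comparisons, beside 7.34% lower and 5.62% higher of all tested genes, and their sum was 195437 and 244977, 27536 and 31676, and 134945 and 136090. In both sums the mdx libraries lay apart from the other 4, as they did for Egr1 to Nr4a3. Endothelial markers, with sums of 913 and 808, 431 and 427, and 623 and 650, were lowest in mdx as well. These sums were mostly Tek (669 and 631, 379 and 348, 503 and 469), which was not called. Of 6 endothelial markers tested, 2 (Pecam1 and Kdr) fell in mdx against control, while none was called in Sirt6mKO/mdx against mdx. Of 8 fibro-adipogenic markers, Col1a1 and Ly6a rose in mdx against control and Col1a1 fell in Sirt6mKO/mdx against mdx. Their sums (18260 and 25122, 35620 and 29814, 19366 and 26824) were mostly Col3a1, which was not called, and others such as Pdgfra (15 and 59, 195 and 18, 142 and 19) differed as much within groups as between them. Sums of 8 smooth muscle and pericyte markers lay between 5082 and 7121, and Des was the largest part of each. In the mdx libraries Des was at 3016 and 3208 and Acta2 at 2837 and 2334. Among these markers Acta2 rose in mdx against control (1.18) and Tagln fell in Sirt6mKO/mdx against mdx (-1.56) and against control (-1.38). Acta2 and Tagln also stand in the list of SRF targets. No marker of the endothelial, myofibre or fibro-adipogenic list was at 0 in all libraries. The part of these lists in the results of the EGR and NR4A genes was not tested.

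**Figure D5:**
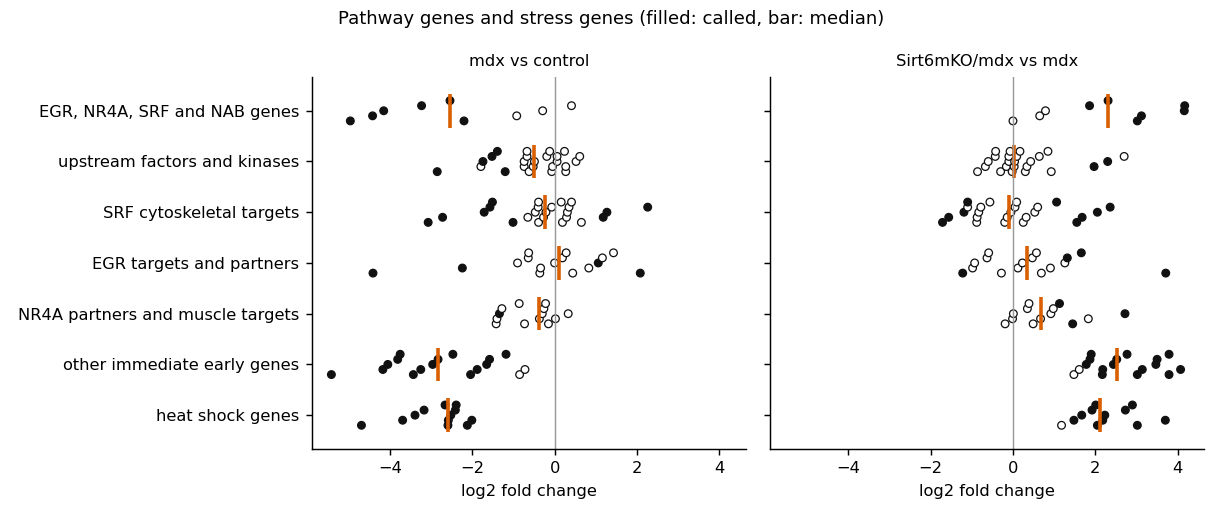
Log2 fold change of each tested gene (point) in the 9 members and 6 gene lists for mdx against control and Sirt6mKO/mdx against mdx; filled points were called and bars mark the median of a list. Other immediate early genes (median -2.83) and heat shock genes (-2.58) lie on the side of the members in mdx against control, while the medians of upstream factors (-0.51), SRF targets (-0.24), NR4A targets (-0.37) and EGR targets (0.09) lie nearer 0.

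The genes whose pattern was most like that of a member were found by the root mean square difference of centred log2 values over the 6 libraries, among 9658 genes with a mean of at least 50. This measure gives a distance in log2 units and no test. For Egr1 they were Smad7 (0.218), Gcc1 (0.232), Jun (0.233), Clcf1 (0.237) and Arid5b (0.247). Smad7 was at 272 and 225 in the control, 54 and 68 in the mdx and 277 and 281 in the Sirt6mKO/mdx libraries.

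For Nr4a1 the nearest genes were Dnajb1 (0.221), Dusp8 (0.241), Atf3 (0.316), Maff (0.393) and Csrnp1 (0.406). Dnajb1 was at 26187 and 36763 (control), 942 and 1533 (mdx) and 15031 and 16194 (Sirt6mKO/mdx), with Sirt6mKO/mdx between the other groups as for Nr4a1. For Srf they were Arhgap21 (0.034), Elf2 (0.056), Clip1 (0.081), Ubr2 (0.088) and Prdm15 (0.096), and Arhgap21 was at 1133 and 1147, 603 and 640, and 1185 and 949. Among the members themselves, Egr1 and Egr2 (0.50) and Nr4a1 and Nr4a3 (0.50) were the closest pairs apart from those of Srf, Nab1 and Nab2.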

How the data were processed

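RNA of freshly sorted MuSCs was measured in 6 libraries, 2 each of control, mdx and Sirt6mKO/mdx mice, grouped by the titles in the labels. According to the methods and the submitters' processing notes, the authors removed ribosomal RNA, sequenced on an Ion Torrent instrument, used Reaper for trimming and STAR (2.4.2a in the notes) for alignment to GRCm38 (mm10), counted reads of Ensembl genes with featureCounts (1.4.5-p1) and used DESeq2 (1.6.0). The deposited values are whole numbers whose skipped and doubled steps show reads divided by 1 size factor per library and then rounded, so they were treated as a normalized score, never as raw counts. The size factors recovered from these steps ranged from 0.5372 to 1.5268 and gave the approximate reads. Intervals of counting error were not computed. No column of per-sample values was left out.

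Count models need raw counts, so limma 3.58.1 in R 4.3.3 was fitted to log2(value + 1) of all 6 libraries without a block, two-sided, with the prior variance set by a trend on the mean, over the 15915 genes that averaged 5 or more. A gene was called at an adjusted p (Benjamini-Hochberg over all tested genes) of at most 0.05 and a change of at least 2-fold. Levels per kilobase used the union of exons of GENCODE release M21. Same-numbered libraries did not deviate together from their group means, so numbers were not taken to pair them. The members and gene lists were chosen with earlier results of these data known. Named genes were all members, 9 fixed factors, in each pathway list and comparison the called gene with the highest and that with the lowest log2 fold change at a mean of at least 50, and the 5 genes most like Egr1, Nr4a1 and Srf. Alternatives changed the pseudocount, filter, scaling, variance model, block and libraries. Some genes of the lists are not reported here.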

Additional observations from a re-analysis of the deposited data

How the results depend on the processing

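Fold changes of the 9 members were recomputed under 16 alternatives. Of 429 values, 413 moved by less than the spread between replicates and 16 moved further. All 16 were with libraries scaled to equal totals and in the 2 comparisons of Sirt6mKO/mdx. The 413 are no evidence of stability, because most could not have moved further. Changing the filter, the prior variance or the block leaves the fold change as it was, as for Egr1 in mdx against control (-2.2). Leaving out a library of a group of 2 shifts the group mean by no more than this spread. Nr4a2 in mdx against control went from -4.42 to -5.61 or -3.24 without an mdx library and still counted among the 413. No called member turned its direction. Egr3, with a mean of 48.8, could not be fitted at a minimum mean of 50. Depth limits Egr3 and Nr4a2 in mdx, with as few as 12 and 6 approximate reads. With the longest transcript as length, Nab1 and Nr4a2 changed places in control and Nab1 and Nr4a1 in mdx.

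Counts of called genes were recomputed under 10 alternatives beside leaving out libraries, and 120 of 150 stayed within 1.5 times. With 1 prior variance for all genes, Sirt6mKO/mdx against mdx kept 0 members, 0 upstream factors, 0 SRF targets, 0 EGR targets and 0 NR4A targets, mdx against control 2 upstream factors, 3 SRF targets and 0 NR4A targets, and Sirt6mKO/mdx against control 0 members, 0 upstream factors and 0 SRF targets. Without a filter the counts were 4 SRF targets, 1 EGR target and 0 NR4A targets in Sirt6mKO/mdx against mdx, 0 NR4A targets in mdx against control, and 0 members, 0 upstream factors and 0 SRF targets in Sirt6mKO/mdx against control. With equal totals, Sirt6mKO/mdx against mdx gave 6 upstream factors (2 higher and 4 lower), 7 EGR targets (2 higher and 5 lower), 12 SRF targets (3 higher and 9 lower) and 1 NR4A target, and Sirt6mKO/mdx against control gave 2 members, 10 upstream factors, 9 SRF targets and 5 EGR targets, all lower. Members called in Sirt6mKO/mdx against control were 0 with a pseudocount of 0.1 and 0 with equal upper quartiles. NR4A targets were 2 in mdx against control by voom and 2 with a robust prior variance, and 1 in Sirt6mKO/mdx against mdx with a pseudocount of 0.1. Over all tested genes, calls of 2265, 1300 and 1253 in the 3 comparisons (mdx against control, Sirt6mKO/mdx against mdx and Sirt6mKO/mdx against control) became 541, 0 and 87 with 1 prior variance, 989, 168 and 221 without a filter and 2235, 3411 and 3147 with equal totals. The cause of these moves was not tested.

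Leaving out 1 library at a time, where a lone library is assumed to vary like the other groups, gave over all tested genes 939 to 2356, 203 to 1475 and 213 to 1314 calls, and 5 to 6 members in mdx against control, 3 to 6 in Sirt6mKO/mdx against mdx and 0 to 1 in Sirt6mKO/mdx against control. In the same order of comparisons it gave 4 to 5, 2 and 0 to 1 upstream factors, 6 to 8, 2 to 9 and 0 to 4 SRF targets, 3 to 5, 1 to 4 and 0 EGR targets, and 0 to 2, 0 to 3 and 0 to 1 NR4A targets. The correlation of deviations between same-numbered libraries was -0.128, 0.119 and 0.009 for the 3 pairs of groups. With the replicate block the members called were 6, 6 and 1 in the 3 comparisons, as without it, and genes called over all were 2415, 1510 and 1404.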
